A study of Mus musculus with 6 samples.

Results

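The genes followed here serve antibody recognition by macrophages, and all 8 were found by symbol among the 41549 genes of the deposited table. They comprised 3 activating receptors for IgG (*Fcgr1*, *Fcgr3* and *Fcgr4*), the inhibitory IgG receptor *Fcgr2b*, the signalling chains *Fcer1g* and *Tyrobp*, the kinase *Syk* and the neonatal Fc receptor *Fcgrt*. The cells were bone marrow-derived macrophages (BMDMs) of wild type C57Bl/6 N mice, grown with M-CSF and then polarized into anti-inflammatory M2 macrophages (M2 Mφs) with IL-4 and IL-13. Before polarization they had been transfected either with an antisense oligonucleotide (named αGlu) whose target, 5'tRFGlu(CTC), is a fragment cut from the leading end of a tRNA for glutamate, or with a control antisense (named Ctr). Each group had 3 mRNA libraries, so every value below compares αGlu 1, 2 and 3 with Ctr 1, 2 and 3, and the comparison asks what blocking the fragment did to the RNA of these genes. All 6 cultures had therefore received an oligonucleotide and both cytokines, and no untransfected or unpolarized library was analysed here. The libraries of a group are separate preparations from different animals, as the study describes its replicates of primary cells. Whether equal numbers in both groups mark the same animal is not said for these libraries. For the level of the fragment in transfected macrophages, the paper compared αGlu with Ctr by a paired test.

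The oligonucleotide and the stretch it targets are shown because the antisense sequence is what sets αGlu apart from Ctr. The capitals mark the target bases that pair with the antisense, which are bases 2 to 21 of the listed target. The fragment itself is not measured by mRNA libraries, and no value here shows how far it was blocked.

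antisense: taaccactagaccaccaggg
target: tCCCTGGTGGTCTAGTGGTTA

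Fc gamma receptors bind the constant part of IgG and let a macrophage engulf or react to whatever the antibody coats. The activating receptors carry no signalling motif of their own in the mouse and use the common gamma chain, the product of *Fcer1g*, whose ITAM is phosphorylated by Src family kinases and then recruits SYK. DAP12, the product of *Tyrobp*, is a second ITAM chain that serves other receptors such as TREM2 and members of the CD300 and SIRPB families. FcγRIIb, from *Fcgr2b*, has an ITIM instead, recruits the phosphatase SHIP1 and holds activating signals back, so the balance of both kinds of receptor sets the response to immune complexes. FcRn, from *Fcgrt*, does not signal through an ITAM but returns IgG from endosomes to the cell surface.

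Depth was high for these genes. Total counts ranged from 17912831 to 30386653 per library, and each member had at least 444 reads in every library. Levels are given as CPM, which are read counts scaled to a common library size after trimmed mean of M-values (TMM) correction. Library αGlu 1 stood apart from αGlu 2 and αGlu 3. With all 6 libraries the edgeR quasi-likelihood test called 0 of the 11933 genes tested at a Benjamini-Hochberg adjusted p under 0.1, although 24.7% of the genes had an unadjusted p under 0.05, and limma-voom called 0 as well. DESeq2 called 15.8% of its genes, and edgeR without αGlu 1 called 49.1%. Results are therefore given with and without αGlu 1. This library was singled out after the values had been seen. The p-values and calls without it are thus descriptions and no test of the treatment. Leaving out αGlu 2 or αGlu 3 instead called 0 genes. The 8 macrophage markers were all detected and their summed level was 11992 to 13669 CPM in Ctr and 12736 to 19161 CPM in αGlu. They did not move together. *Cd14* was at 17.3 to 30.1 CPM in Ctr, against 12.4, 293 and 240 CPM in αGlu. *Cd68* was at 1809 to 2063 CPM in Ctr, against 1990, 1237 and 1145 CPM in αGlu. The sums for NK cell, B cell, mast cell or basophil and dendritic cell markers did not exceed 4.93 CPM in any library. Of 10 neutrophil markers 3 exceeded 1 CPM on average, and *Ly6g* and *Retnlg* had no reads at all. Their sum was 128 to 208 CPM in Ctr and 239 to 636 CPM in αGlu, most of it from *Csf3r*, and its part in the results was not tested. The M2 label held unevenly among its markers: *Mrc1* was at 771 to 948 CPM in Ctr and 840 to 2379 CPM in αGlu, whereas *Retnla* was at 245 to 540 CPM in Ctr, 101 CPM in αGlu 1 and 0.0315 and 0.0367 CPM in αGlu 2 and αGlu 3.

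None of the 8 members was called with all 6 libraries, against 0% of all genes. The groups did not overlap for 2 members, *Fcgr1* being higher and *Tyrobp* lower in αGlu, where 30.2% of all genes tested did not overlap, 14.2% higher and 15.9% lower. Without αGlu 1, edgeR called 4 of 8 members against the 49.1% of all genes. *Fcgr2b* and *Fcgr3* rose in that fit (23.5% of all genes did) and *Fcgr4* and *Tyrobp* fell (25.6% did). The groups then did not overlap for 7 of 8 members, against 65.8% of all genes. The share of members called was thus close to that of all genes, and it is the levels and their order that describe this group. RNA from bulk cultures cannot tell fewer expressing cells from less RNA per cell.

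The inhibitory receptor *Fcgr2b* was the member with the smallest unadjusted p (0.0313). It was at 607, 601 and 617 CPM in Ctr 1, 2 and 3, and at 608, 1476 and 1679 CPM in αGlu 1, 2 and 3. The controls were almost equal, αGlu 1 lay within their range, and αGlu 2 and αGlu 3 were 2.43 and 2.76 times the control mean. With all libraries the log2 fold change was 1.04 ± 0.37 (SE, n = 3 and 3, edgeR adjusted p = 0.178). Without αGlu 1 it was 1.37 ± 0.10 (adjusted p = 0.000167). Without αGlu 2 it was 0.92 ± 0.43 and without αGlu 3 it was 0.78 ± 0.38 (edgeR adjusted p = 0.445 and 0.450). *Fcgr2b* was also the only member of 8 that DESeq2 called on all 6 libraries (adjusted p = 0.0542). DESeq2 called 15.8% of all its genes, 7.71% of them as higher and 8.1% as lower in αGlu.

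*Fcgr3*, the low-affinity activating receptor, lies in the same gene cluster as *Fcgr2b*. It was at 803, 645 and 812 CPM in Ctr, against 704, 912 and 1030 CPM in αGlu, so the groups overlapped through αGlu 1. The log2 fold change was 0.23 ± 0.19 (SE, n = 3 and 3, edgeR adjusted p = 0.455). Without αGlu 1 it was 0.36 ± 0.13 (adjusted p = 0.0732), which passed the threshold. *Fcgr3* and *Fcgr2b* are similar in their extracellular part, and of the 1733 windows of 50 bases in the GENCODE M21 transcripts of *Fcgr3*, 166 (9.58%) also occurred in *Fcgr2b*. Those windows made up 2.92% of the *Fcgr2b* windows, and how reads that fit both genes were assigned is not given in the sources used here. When the reads of both genes were added, a check chosen after seeing the data, the sum was 1409, 1246 and 1428 CPM in Ctr and 1312, 2388 and 2710 CPM in αGlu (log2 fold change 0.65 ± 0.29, edgeR adjusted p = 0.224). No such window of *Fcgr1*, *Fcgr4*, *Fcer1g*, *Tyrobp*, *Syk* or *Fcgrt* occurred in another gene.

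*Fcgr4*, the activating receptor that prefers IgG2 subclasses, went the other way. It was at 144, 241 and 257 CPM in Ctr, against 186, 127 and 139 CPM in αGlu. Ctr 1 fell between the αGlu libraries, and the remaining controls were above all of αGlu. The log2 fold change was -0.51 ± 0.26 (SE, n = 3 and 3, edgeR adjusted p = 0.267) and without αGlu 1 it was -0.69 ± 0.25 (adjusted p = 0.0676), a call at the threshold of 0.1. Leaving out Ctr 1 gave -0.72 ± 0.19 (adjusted p = 0.351).

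*Fcgr1*, the high-affinity IgG receptor, was the only member higher in all 3 αGlu libraries than in all 3 controls. It was at 70.3, 215 and 219 CPM in Ctr, against 276, 318 and 299 CPM in αGlu. The low value of Ctr 1 widened the spread, and the log2 fold change of 0.82 ± 0.42 was not called (SE, n = 3 and 3, edgeR adjusted p = 0.265). Without Ctr 1 the fold change was smaller and its error too, 0.46 ± 0.11 (adjusted p = 0.351). Without αGlu 1 it stayed at 0.87 ± 0.45 (adjusted p = 0.169), so of the 4 IgG receptors *Fcgr1* was the one whose αGlu libraries lay close together, αGlu 1 included.

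**Figure D1:**
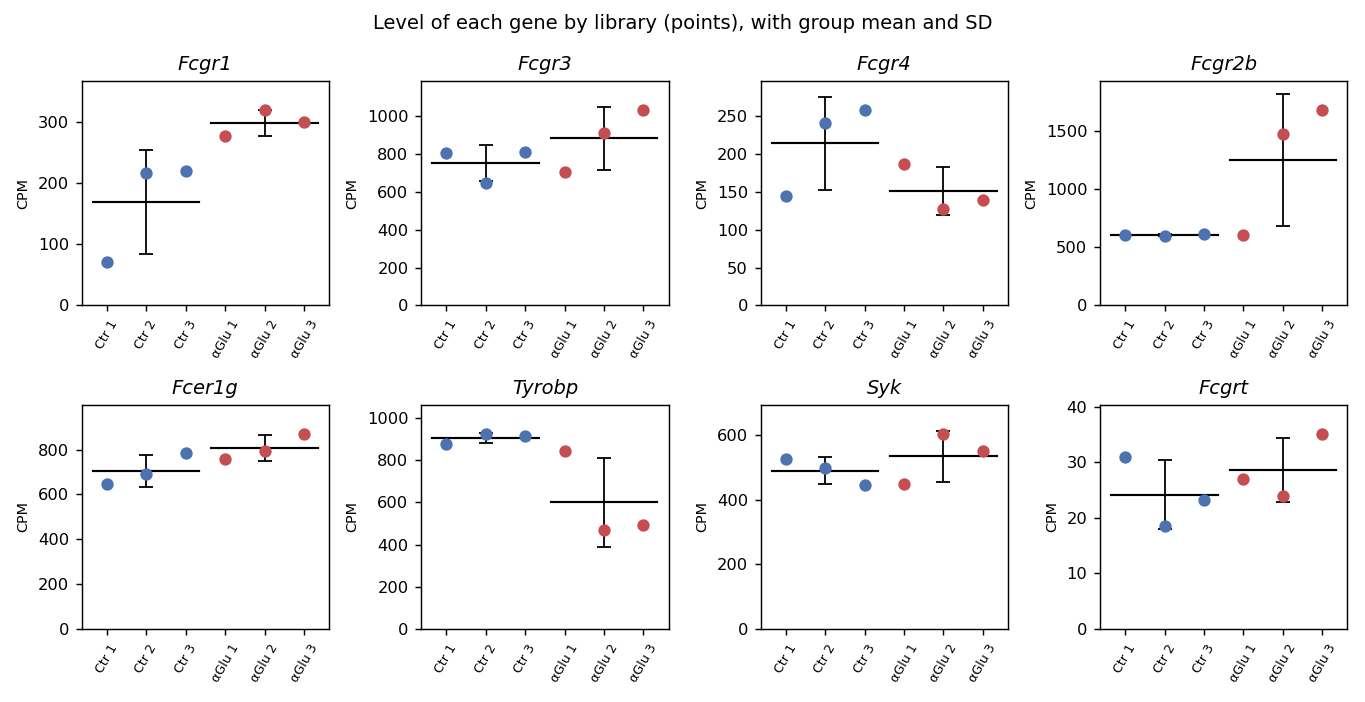
Level of each of the 8 genes in CPM (vertical axis, starting at 0) in the 3 Ctr libraries (blue) and the 3 αGlu libraries (red); horizontal lines are group means and bars are SDs over 3 libraries. *Fcgr2b* and *Tyrobp* in αGlu 1 sit near the controls, at 608 and 840 CPM, while αGlu 2 and αGlu 3 are apart from them, and *Fcgr1* is lowest in Ctr 1, at 70.3 CPM.

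*Fcgr1* and *Fcgr4* are both known to respond to interferons, and Ctr 1 was low in interferon-stimulated RNA. The summed level of 9 such genes (*Ifit1*, *Ifit2*, *Ifit3*, *Isg15*, *Mx1*, *Rsad2*, *Usp18*, *Irf7* and *Oasl2*, a list drawn up after these data had been seen) was 367 CPM in Ctr 1, 2898 CPM in Ctr 2 and 3085 CPM in Ctr 3, and it was 4194, 3159 and 2597 CPM in the αGlu libraries. Ctr 1 was the lowest library for each of the 9 genes, and for *Fcgr1* as well. *Fcgr4* was low in Ctr 1 too, but αGlu 2 and αGlu 3 were lower still, and their summed interferon-stimulated levels, 3159 and 2597 CPM, were far above that of Ctr 1. The part of this difference between libraries in the *Fcgr1* and *Fcgr4* results was not tested.

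**Figure D2:**
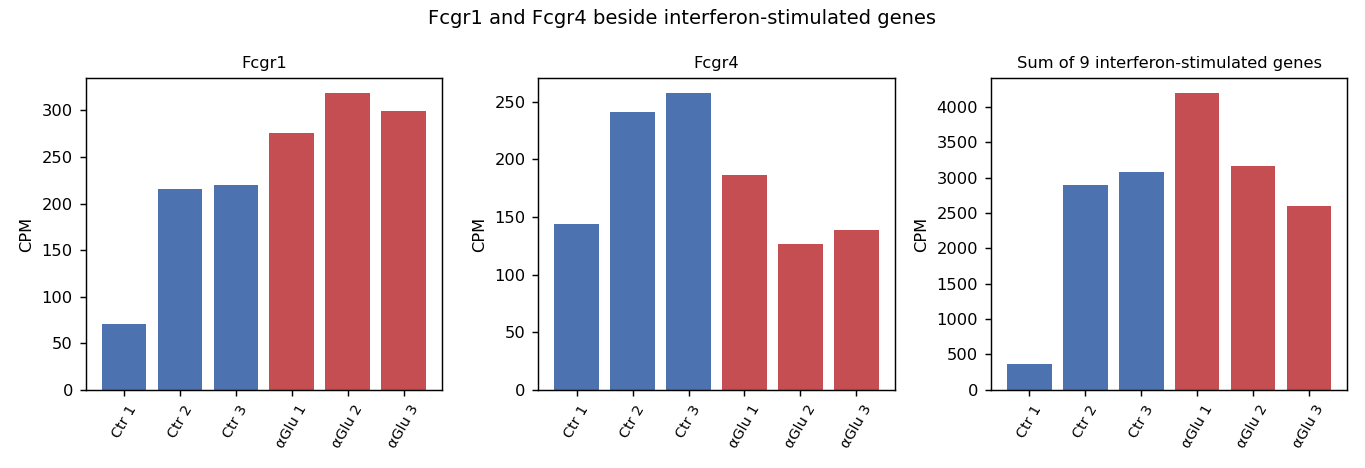
CPM of *Fcgr1*, of *Fcgr4* and of the sum of 9 interferon-stimulated genes in each library (Ctr blue, αGlu red, bars from 0, 1 library per bar and no error bars). The sum is 367 CPM in Ctr 1 and 2597 to 4194 CPM in the other 5 libraries, and *Fcgr4* is at 127 and 139 CPM in αGlu 2 and αGlu 3.

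The start-site regions of these receptors are printed for 3 members whose levels diverged. They are the 250 bases before a RefSeq start in build GRCm38.p6, read on the gene's own strand, and the capitals mark matches to a STAT-type motif (TTCNNNGAA), an interferon response type motif (a pair of GAAA, or of its complement TTTC, with 2 bases between) and a PU.1-type motif (GAGGAAGT or its complement ACTTCCTC), searched on both strands. A wider STAT-type motif, TTC and GAA with 4 bases between, was searched as well. *Fcgr1* lies at chr3:96293970-96294219 (minus strand), *Fcgr4* at chr1:171018676-171018925 (plus strand) and *Fcgr2b* at chr1:170976072-170976321 (minus strand).

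Fcgr1: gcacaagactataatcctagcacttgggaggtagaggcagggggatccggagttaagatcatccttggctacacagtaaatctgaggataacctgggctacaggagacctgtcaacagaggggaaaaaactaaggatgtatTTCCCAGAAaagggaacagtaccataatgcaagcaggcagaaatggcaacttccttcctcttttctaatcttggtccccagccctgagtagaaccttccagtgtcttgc
Fcgr4: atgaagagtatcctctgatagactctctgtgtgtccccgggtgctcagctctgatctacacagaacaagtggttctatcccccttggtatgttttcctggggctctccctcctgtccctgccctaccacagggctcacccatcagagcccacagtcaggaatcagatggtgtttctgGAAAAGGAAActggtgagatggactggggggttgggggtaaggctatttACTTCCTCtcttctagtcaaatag
Fcgr2b: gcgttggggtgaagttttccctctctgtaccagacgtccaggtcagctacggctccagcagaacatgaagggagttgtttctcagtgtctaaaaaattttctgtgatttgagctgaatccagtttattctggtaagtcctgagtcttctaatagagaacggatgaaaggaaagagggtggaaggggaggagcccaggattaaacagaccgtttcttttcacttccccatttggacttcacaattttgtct

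The STAT-type match TTCCCAGAA began 109 bases before the *Fcgr1* start, and 7.02% of 32851 such regions in the RefSeq table hold the motif. In *Fcgr4* the interferon response type match GAAAAGGAAA began 73 bases before the start and the PU.1-type match ACTTCCTC began 24 bases before it, motifs held by 2.98% and 2.44% of the regions. The *Fcgr2b* region held none of these letters, nor the wider STAT-type motif, which 5.85% of the regions hold. A match is a description of the letters only. Regions of *Fcer1g*, *Fcgr3*, *Fcgrt* and *Syk* held none of the 4 motifs either. The regions of *Fcgr2b*, *Fcgr3* and *Syk* lie inside the GENCODE M21 spans of these genes, so the bases before those outer starts were not searched. The shorter ETS core AGGAAG or CTTCCT, which 29.5% of the regions hold, occurred in *Fcer1g*, *Fcgr1*, *Fcgr3* and *Fcgr4*, in the last as part of the PU.1-type match. *Tyrobp* was not matched in the table.

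The receptors differed in direction within one short stretch of the genome. In GRCm38, *Fcgr2b* (chr1:170958617-170976547, minus strand), *Fcgr4* (chr1:171018920-171029761, plus strand) and *Fcgr3* (chr1:171051174-171064935, minus strand) span 106.3 kb, and *Fcer1g* (chr1:171229572-171234365, minus strand) lies 164.6 kb further on. *Fcgr1* lies apart at chr3:96282909-96293969. The nearest genes on either side of the cluster were nearly silent, *Fcrla* with at most 12 reads in any library and *Cfap126* at 1.32 to 2.04 CPM in Ctr and 2.18 to 2.38 CPM in αGlu. Within the cluster, in αGlu 2 and αGlu 3, *Fcgr2b* was above all controls while *Fcgr4*, the next of the 3 genes along the chromosome, was below all of them. An antisense gene, *Gm38204*, overlaps *Fcgr2b* and had 4 reads in αGlu 3 and none elsewhere.

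Of the ITAM chains, *Fcer1g* overlapped between the groups and *Tyrobp* did not. *Fcer1g* was at 645, 690 and 784 CPM in Ctr, against 758, 793 and 870 CPM in αGlu. The αGlu libraries lay in the upper part of the range, with a log2 fold change of 0.19 ± 0.13 (SE, n = 3 and 3, edgeR adjusted p = 0.378). *Tyrobp* was at 877, 922 and 912 CPM in Ctr, against 840, 468 and 490 CPM in αGlu, so that all αGlu libraries were below all controls, αGlu 1 only slightly. Its log2 fold change was -0.59 ± 0.25 (SE, n = 3 and 3, edgeR adjusted p = 0.211) and -0.92 ± 0.09 without αGlu 1 (adjusted p = 0.000547). *Tyrobp* in αGlu 2 and αGlu 3 was at 0.517 and 0.543 of the control mean.

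For *Syk* and *Fcgrt* no difference beyond the spread between libraries was found. *Syk*, the kinase that docks on the phosphorylated ITAM of either chain, was at 526, 499 and 444 CPM in Ctr, against 447, 603 and 552 CPM in αGlu (log2 fold change 0.12 ± 0.15, edgeR adjusted p = 0.614). Without αGlu 1 the difference was 0.23 ± 0.11 (adjusted p = 0.132). *Fcgrt* was the lowest member, at 30.8, 18.6 and 23.2 CPM in Ctr, against 26.9, 23.9 and 35.1 CPM in αGlu (log2 fold change 0.24 ± 0.23, edgeR adjusted p = 0.511), and the groups overlapped for both genes. An antisense gene also overlaps *Fcgrt*, and whether reads were counted by strand is not given in the sources used here.

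**Figure D3:**
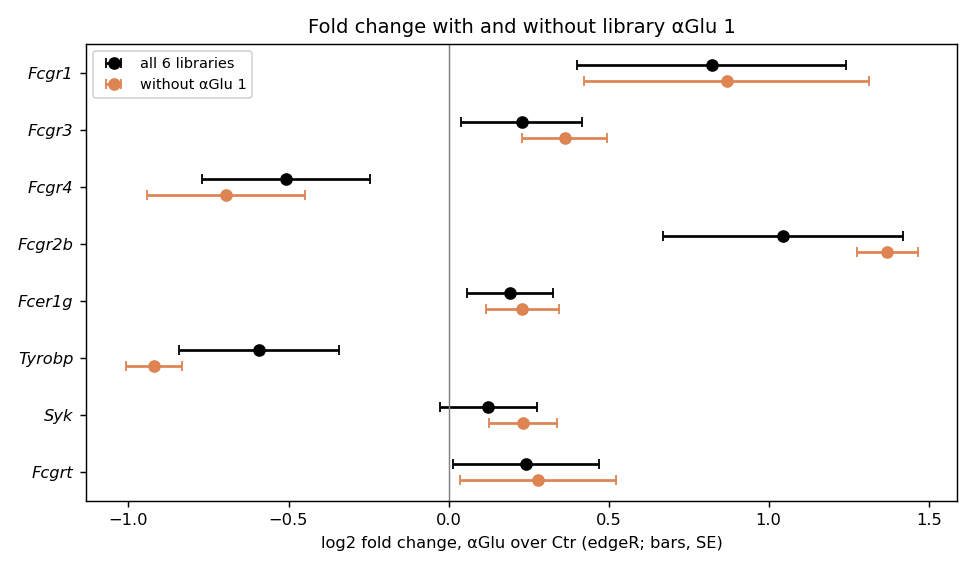
Log2 fold change of αGlu over Ctr (horizontal axis) for each member, with all 6 libraries (black) and without αGlu 1 (orange); bars are SEs of the edgeR fit. *Fcgr2b* moves from 1.04 to 1.37 and *Tyrobp* from -0.59 to -0.92 with much shorter bars, and no member changes sign.

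For levels between genes the deposited RPKM values, which are per length of transcript, were used. In Ctr the order was *Tyrobp* (1237 ± 13.9 RPKM, SD, n = 3), *Fcer1g* (738 ± 73.3), *Fcgr3* (397 ± 57.9), *Fcgr4* (155 ± 42.5), *Fcgr2b* (96.0 ± 3.20), *Fcgr1* (59.0 ± 29.2), *Syk* (47.8 ± 4.52) and *Fcgrt* (10.6 ± 2.96). Neighbours in this order were separated in all libraries except *Fcgr1* and *Syk*. In αGlu the order was *Fcer1g* (893 ± 103 RPKM, SD, n = 3), *Tyrobp* (858 ± 254), *Fcgr3* (493 ± 114), *Fcgr2b* (212 ± 103), *Fcgr4* (115 ± 18.6), *Fcgr1* (111 ± 12.3), *Syk* (55.2 ± 10.3) and *Fcgrt* (13.2 ± 3.09). Overlapping neighbours there were *Fcer1g* with *Tyrobp*, *Fcgr2b* with *Fcgr4*, and *Fcgr4* with *Fcgr1*. The chains were thus the most abundant and FcRn the least in both groups, and *Fcgr3* was the leading receptor in both.

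Ratios of RPKM within a library show how the balance of the receptors differed, and they are descriptions without a test because the members were chosen together. Activating receptors (*Fcgr1*, *Fcgr3* and *Fcgr4* summed) over *Fcgr2b* came to 5.77, 6.23 and 7.11 in Ctr and to 6.29, 2.94 and 2.82 in αGlu. The ratio of αGlu 1 lay within the controls, and the other two αGlu libraries were below all controls. *Fcgr4* over *Fcgr1* was 4.22, 2.30 and 2.42 in Ctr and 1.39, 0.820 and 0.956 in αGlu, where every αGlu library was below every control. That ratio sets a receptor with a lower mean in αGlu over one with a higher mean, so the choice of genes favoured a separation. Of the ratios given here, only activating receptors over *Fcgr2b* was planned. *Tyrobp* over *Fcer1g* was 1.78, 1.75 and 1.52 in Ctr and 1.45, 0.773 and 0.739 in αGlu. *Fcer1g* over the summed activating receptors, in contrast, was 1.22, 1.22 and 1.18 in Ctr and 1.31, 1.21 and 1.21 in αGlu. The RNA of the gamma chain and the summed RNA of the 3 activating IgG receptors therefore kept nearly one ratio in all 6 libraries. *Fcer1g* varied little, and 725 of 8348 genes had a centred log2 CPM profile within 0.1 of it (root mean square difference). A steady ratio to *Fcer1g* is thus not particular to these receptors. The shares of the receptors in the summed RNA differed, as the ratio of *Fcgr4* to *Fcgr1* shows. The sum left out other receptors that use the gamma chain, such as *Clec4e*, whose levels are given below.

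**Figure D4:**
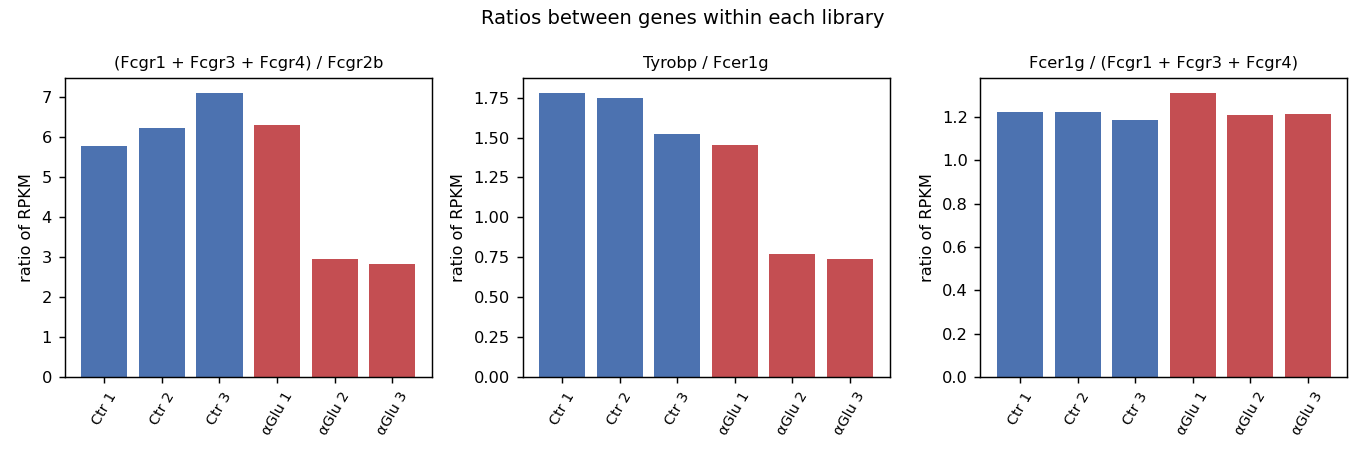
Ratios of deposited RPKM within each library (Ctr blue, αGlu red, bars from 0, 1 library per bar and no error bars): activating receptors over *Fcgr2b*, *Tyrobp* over *Fcer1g*, and *Fcer1g* over the summed activating receptors. The first 2 ratios are lowest in αGlu 2 and αGlu 3, at 2.94 and 2.82 and at 0.773 and 0.739, and the third stays between 1.18 and 1.31.

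Other genes of the pathway were taken from 6 lists with 111 genes, of which 92 were tested and 0 were called with all 6 libraries. Groups did not overlap for 26 of them (28.3%, against 30.2% of all genes), 14 higher and 12 lower in αGlu. Without αGlu 1, 24 were called higher and 33 lower (62%, against 49.1% of all genes). DESeq2 on all 6 libraries called 16 higher (7.71% of all genes were) and 6 lower (8.1% were), so the balance of directions depended on the fit. The counts for single lists below are to be read against the shares of all genes. Without overlap, 14.2% of all genes tested were higher and 15.9% lower. In the fit without αGlu 1, 23.5% were called higher and 25.6% lower. No list was tested as a set.

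The Src family kinases phosphorylate the ITAM. Of 8 tested genes of this list (median log2 fold change -0.12, against 0.02 over all genes), none was higher and 1 was lower without overlap, and without αGlu 1 the fit called 2 higher and 3 lower. *Fgr* was at 6.90 to 8.63 CPM in Ctr, against 4.19, 49.3 and 49.6 CPM in αGlu (log2 fold change 2.17 ± 0.83, edgeR adjusted p = 0.188). *Src* was at 34.6 to 58.3 CPM in Ctr, against 36.8, 123 and 107 CPM in αGlu (1.05 ± 0.47, adjusted p = 0.224). Both were called higher without αGlu 1, with log2 fold changes of 2.69 and 1.42. *Lyn* and *Fyn*, kinases more abundant in Ctr, were called lower in that fit, with log2 fold changes of -0.38 and -0.53. *Lyn* was at 158 to 200 CPM in Ctr, against 183, 123 and 144 CPM in αGlu. *Fyn* was at 88.3 to 102 CPM in Ctr, against 102, 56.5 and 78.4 CPM in αGlu. *Csk*, the kinase that keeps the Src family inactive, was slightly lower in every αGlu library, at 162.2 to 185 CPM in Ctr, against 161.8, 144 and 157 CPM in αGlu (-0.17 ± 0.09, adjusted p = 0.290). *Ptprc*, the phosphatase CD45 and the most abundant gene of the list, was at 541 to 617 CPM in Ctr and 545 to 603 CPM in αGlu.

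Effectors downstream of SYK had a median log2 fold change of -0.15 (21 genes). Groups did not overlap for 2 higher and 4 lower genes, and without αGlu 1 the fit called 5 higher and 10 lower. The adaptor gene *Lcp2* (SLP-76) was at no more than 67.8 CPM in Ctr, against 81.0, 151 and 202 CPM in αGlu (1.37 ± 0.34, edgeR adjusted p = 0.156). *Vav1*, an exchange factor for Rac, was at 135 to 146 CPM in Ctr, against 154, 283 and 267 CPM in αGlu (0.75 ± 0.23, adjusted p = 0.162). For both genes every αGlu library was above every control. *Shc1*, an adaptor towards Ras, was lower in every αGlu library, at 92.6 to 115 CPM in Ctr, against 76.4, 65.6 and 69.7 CPM in αGlu (-0.56 ± 0.11, adjusted p = 0.149). *Pik3ap1* (BCAP), the most abundant effector on the list by mean CPM, was at 530, 854 and 841 CPM in Ctr, against 979, 508 and 518 CPM in αGlu, where the groups overlapped and its sign depended on the libraries used.

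ITIM receptors and inhibitors, the side on which *Fcgr2b* acts, comprised 22 tested genes with a median log2 fold change of -0.05, with 4 higher and 2 lower without overlap and, without αGlu 1, 6 called higher and 8 lower. *Dok2*, an adaptor that restrains Ras signalling, had the smallest p of all the listed genes. It was at 81.4, 63.6 and 72.6 CPM in Ctr, against 28.3, 30.8 and 34.2 CPM in αGlu, low in αGlu 1 as in the other two, with a log2 fold change of -1.22 ± 0.12 (SE, n = 3 and 3, unadjusted p = 5.6e-05 and adjusted p = 0.149 by edgeR). DESeq2 gave it an adjusted p of 1.9e-11 on the same libraries. *Ceacam1*, an ITIM receptor, was at 13.6 to 18.2 CPM in Ctr, against 10.7 to 11.7 CPM in αGlu (-0.50 ± 0.13, adjusted p = 0.156). *Cd300lf* was at 3.09, 7.77 and 15.03 CPM in Ctr, against 16.7, 135 and 99.9 CPM in αGlu (3.28 ± 0.91, adjusted p = 0.157). *Sirpa*, the receptor for CD47 and the most abundant of the list, was at 2029 to 2121 CPM in Ctr, against 1791 to 2051 CPM in αGlu.

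Receptors that pair with the *Tyrobp* or *Fcer1g* chains ranged most widely, with log2 fold changes from -1.60 to 8.93 and a median of 0.18 over 17 tested genes. Groups did not overlap for 5 higher and 3 lower genes, and without αGlu 1 the fit called 8 higher and 6 lower. *Clec4e* (Mincle), a lectin that signals through the gamma chain, was at 2.36, 2.88 and 4.04 CPM in Ctr, against 5.79, 2387 and 2145 CPM in αGlu (8.93 ± 2.11, edgeR adjusted p = 0.156). *Pilrb1*, a partner of DAP12, was at 0.232 to 0.500 CPM in Ctr, against 0.459, 9.51 and 9.61 CPM in αGlu (4.19 ± 1.11, adjusted p = 0.156), and it is one of a pair of close copies with *Pilrb2* whose reads can be hard to separate. *Cd300ld* was at 570, 718 and 711 CPM in Ctr, against 405, 182 and 173 CPM in αGlu (-1.40 ± 0.36, adjusted p = 0.156). *Trem2*, the lipid receptor that depends on DAP12, was at 886, 1059 and 1024 CPM in Ctr, against 1001, 305 and 291 CPM in αGlu (-0.89 ± 0.51, adjusted p = 0.304). Like *Tyrobp* it was low in αGlu 2 and αGlu 3, but it fell further, to 0.308 and 0.294 of the control mean. Its αGlu 1 value lay within the controls. Without αGlu 1, *Clec4e* and *Pilrb1* were called higher and *Cd300ld* and *Trem2* lower.

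**Figure D5:**
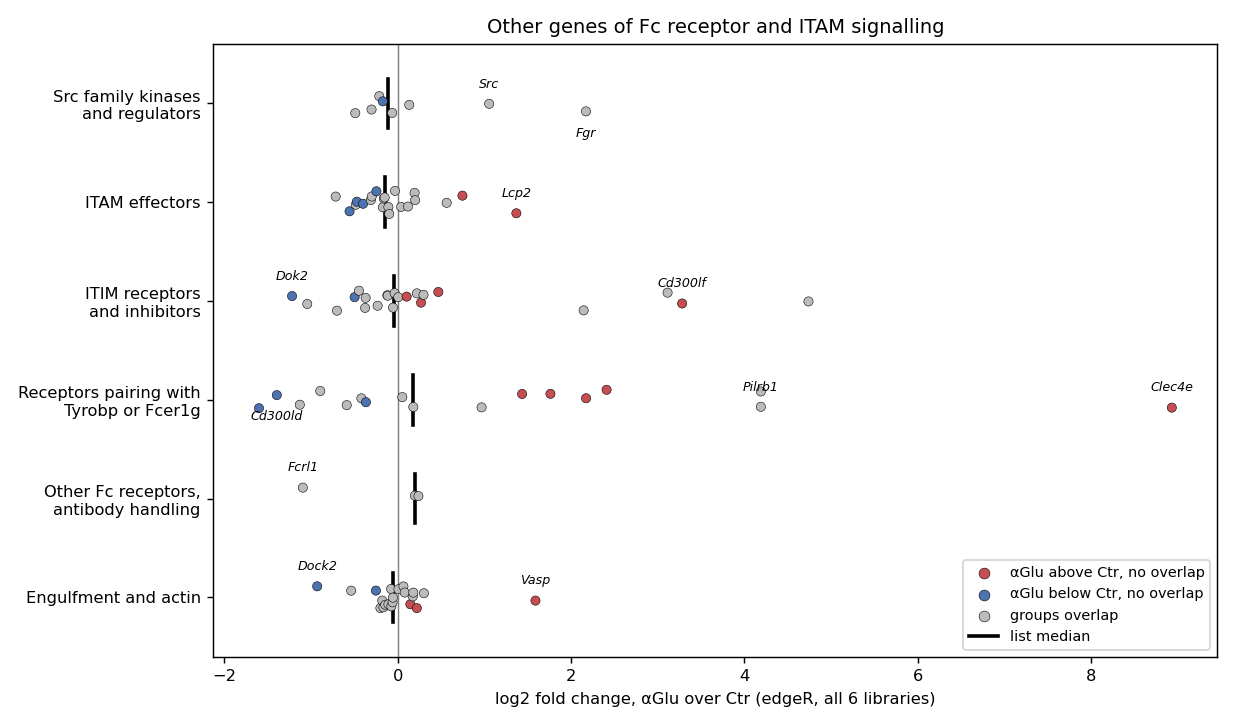
Log2 fold change of αGlu over Ctr with all 6 libraries (horizontal axis) for the 92 tested genes of 6 lists (rows); each point is a gene, red or blue where all αGlu libraries are above or below all Ctr libraries, grey where they overlap, and black bars are list medians. Medians lie between -0.15 and 0.20, and the widest range, up to 8.93 for *Clec4e*, is among the receptors that pair with *Tyrobp* or *Fcer1g*.

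Other Fc receptors were nearly absent. Of 13 listed genes only *Trim21*, *Fcrl1* and *B2m* had enough reads for a test, and none had groups without overlap. *Fcer2a*, *Fcrl6* and *Fcamr* had no reads, and the IgE receptor chains *Fcer1a* and *Ms4a2* had at most 13 and 14 reads in a library. *Trim21*, a cytosolic receptor for antibody, was at 33.1 to 50.3 CPM in Ctr and 48.3 to 53.4 CPM in αGlu. *B2m*, the light chain that FcRn shares with MHC class I, was at 4151, 6352 and 6788 CPM in Ctr, against 7077, 6544 and 6195 CPM in αGlu, again lowest in Ctr 1. *Fcrl1*, a B cell receptor, was at 1.505 to 2.78 CPM in Ctr, against 2.47, 0.220 and 0.367 CPM in αGlu.

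Genes of engulfment and of the actin machinery ranged from -0.93 to 1.59 in log2 fold change, with a median of -0.06 for 21 genes tested, 3 higher and 2 lower without overlap and, without αGlu 1, 3 called higher and 5 lower. *Vasp*, which promotes actin filament growth, was at 50.2 to 53.2 CPM in Ctr, against 56.7, 190 and 219 CPM in αGlu (1.59 ± 0.48, edgeR adjusted p = 0.160). *Dock2*, a Rac activator of blood cells, was at 586 to 764 CPM in Ctr, against 564, 245 and 280 CPM in αGlu (-0.93 ± 0.34, adjusted p = 0.181). *Myo1g* was at 206 to 245 CPM in Ctr and 177 to 198 CPM in αGlu, and *Nckap1l*, the WAVE complex subunit HEM1, at 710 to 808 CPM and 624 to 772 CPM.

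Genes with profiles most like each member were sought among 8348 protein-coding genes by the root mean square (RMS) difference of centred log2 CPM over the 6 libraries. *Arrb2* (0.05) and *Gpd2* (0.07) were closest to *Fcgr2b*, and 5 genes in all were within 0.1. *Trim30d* (0.07) and *Trex1* (0.12) were closest to *Fcgr1* and shared its low value in Ctr 1, at 28.9 and 32.3 CPM against 89.4 to 104 and 106 to 113 CPM in the other controls. *Nt5c2* (0.03) and *Arl11* (0.04) were closest to *Tyrobp*, with 80 genes within 0.1. *Bmt2* (0.10) and *Rilp* (0.13) were closest to *Fcgr4*, and *Tnfrsf13b* and *Sgsh* (both 0.13) to *Fcgrt*, neither of which had a gene within 0.1. The flatter members had many near profiles: 65 genes within 0.1 for *Fcgr3*, led by *Casd1* and *Yaf2*, 299 for *Syk*, led by *Ghdc* and *Cyp4f13*, and 725 for *Fcer1g*, led by *Rnf11* and *Rgs14*.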

How the data were processed

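Messenger RNA of 6 libraries of M2 Mφs (3 Ctr, 3 αGlu) was analysed. The authors prepared stranded mRNA libraries and ran them through the RNA-seq Analysis Portal of QIAGEN. The submitters' processing notes name build GRCm38, and the aligner, the annotation and the rule for reads matching more than 1 gene are not given in the sources used here. The deposited counts are whole, unscaled reads per gene. RPKM was scaled by the authors for length and depth. TPM, also deposited, has the same sum in every library and was used as an alternative to RPKM. Other deposited columns of scaled values were not used.

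Counts were tested with edgeR 4.0.16 in R 4.3.3: filterByExpr (minimum count 10, minimum total count 15, 11933 of 41549 genes kept), TMM factors, and a two-sided quasi-likelihood test with group as the only term and Benjamini-Hochberg adjustment over all genes tested. A call is an adjusted p under 0.1 without a fold limit. CPM are counts over TMM-scaled library sizes, and SE is the absolute log2 fold change over the square root of F. RPKM served only for levels between genes and for ratios. Alternatives were DESeq2 1.42.0, limma-voom (limma 3.58.1), other scalings and filters, a replicate block, stricter thresholds and leaving out each library. The fit was tested on simulated counts whose spread was taken from the Ctr libraries alone. They held no library like αGlu 1, so they do not show how the fit behaves on a divided αGlu group. No 2 libraries of a group agreed within sampling noise (chi-square per gene at least 19.8).

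Named genes were the members, the 3 genes of smallest p and the most abundant gene of each of 6 lists, the 2 nearest profiles of each member (protein-coding, mean log2 CPM at least 3, with a prior count of 2) and the genes on either side of the *Fcgr* cluster. *Lyn* and *Fyn* were named in addition, to show kinases of the Src family list that fell. Members and lists were chosen with earlier results of these data known. Coordinates and transcripts are from GENCODE M21, and start-site regions from RefSeq, where 7 of 8 members matched. Some genes are not reported here and were left out of the lists.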

Additional observations from a re-analysis of the deposited data

How the results depend on the processing

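With all 6 libraries 0 genes were called by edgeR. The count of genes called was 2173 with DESeq2 and 17 with the replicate block, and 0 to 6055 when 1 library was left out, the highest without αGlu 1. Members called came to 1 with DESeq2 (*Fcgr2b*), which called 15.8% of its genes. They came to 0 to 4 with 1 library left out, the highest again without αGlu 1, where 49.1% of all genes were called. Whether the numbers of the libraries pair them was not settled. Deviations from the group means of same-numbered libraries correlated at r = 0.0764, 0.0646 and 0.154. These values were low, but each was higher than for other-numbered libraries (-0.112 to 0.0459). Members whose groups did not overlap numbered 2 with all libraries and 2 to 7 with 1 left out, and pathway genes 26 and 29 to 72, the highest without αGlu 1 in both cases, where 65.8% of all genes did not overlap. Pairs of neighbours in the order of RPKM that overlapped numbered 4, and 1 to 4 with 1 library left out. The log2 ratio of activating to inhibitory receptors, αGlu over Ctr, was -0.66, and -1.14 without αGlu 1, its lowest value. The highest with 1 library left out was -0.46. No member changed sign under the 13 alternative fits, and *Fcgr2b* did not have the largest log2 fold change in all of them: with limma-voom *Fcgr1* was at 0.99 and *Fcgr2b* at 0.86. Of 612 values of named genes under alternatives, 562 kept direction and call, 47 became called and 3 reversed: *Ptprc* scaled by library size alone (0.019), where the median of all genes shifted to 0.10, and *Pik3ap1* without αGlu 2 (0.015) or without αGlu 3 (0.0051), its range with 1 library left out being -0.54 to 0.015. The cause was not tested. Depth limits only the genes with few reads, such as the Fc receptors at or near 0. Without αGlu 1, its group held 2 libraries.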

Other observations

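The genes described here were chosen after their values had been seen. *Siglece*, an ITIM receptor for sialic acids, had too few libraries with reads to be tested. It had 4, 0 and 4 reads in Ctr 1, 2 and 3 and 4, 1287 and 1441 reads in αGlu 1, 2 and 3, which is 0.229, 40.5 and 52.9 CPM in αGlu. *Pilra* and *Cd33*, also ITIM receptors, followed the same libraries. *Pilra* was at 0.772 to 1.02 CPM in Ctr, against 0.172, 34.8 and 34.1 CPM in αGlu (log2 fold change 4.74 ± 1.48, edgeR adjusted p = 0.162), and *Cd33* at 7.73 to 12.2 CPM and at 9.41, 145 and 116 CPM (3.11 ± 0.93, adjusted p = 0.160).

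The CD300 family, a gene cluster with activating and inhibitory members, differed in direction among its members. *Cd300a*, an inhibitory receptor, was at 321 to 356 CPM in Ctr, against 339, 71.8 and 73.6 CPM in αGlu, and *Cd300lb*, a DAP12 partner, at 593 to 698 CPM and at 596, 148 and 158 CPM. Without αGlu 1 both fell (log2 fold changes -2.20 and -2.11), while *Cd300lf* rose (3.76). *Sirpb1a*, *Sirpb1b* and *Sirpb1c*, DAP12 partners with near-identical sequences whose reads are uncertain in their assignment, were higher in all 3 αGlu libraries than in all controls, with log2 fold changes of 2.17 ± 0.59, 1.76 ± 0.49 and 2.41 ± 0.67 (edgeR adjusted p = 0.157, 0.158 and 0.158). Partners of the DAP12 chain were thus found on both sides, with *Trem2* and *Cd300lb* lower and the *Sirpb1* genes higher in αGlu 2 and αGlu 3, the libraries in which *Tyrobp* was low.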
